A study of Microtus ochrogaster with 46 samples.

Results

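Avpr1a encodes the vasopressin receptor 1a, and 1 row of the 17479 in the deposited table carries its name. It was picked as the only row labelled with a symbol, so the measurements below describe 1 gene across all 46 libraries of the series. The animals were prairie voles (Microtus ochrogaster), and the RNA came from frozen tissue punches of the nucleus accumbens, part of the ventral striatum. Naive voles had shared a cage with a littermate of their own sex for 3 weeks, and partnered voles had lived with a vole of the opposite sex for 24 h or for 3 weeks. The sample titles give 10 naive, 10 24 h and 9 3 week libraries of females, and 6, 6 and 5 of males (the series description lists 6 females at 3 weeks). No transgene, drug or batch is named in the labels, and the sources used here do not give age or strain. The series text counts 46 voles, as many as there are libraries, and names no pooling, so n is taken to count voles.

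Vasopressin is a neuropeptide released in the forebrain, and the receptor 1a is a membrane receptor that couples through Gq proteins to phospholipase C and raises calcium inside the cell. In prairie voles this receptor has long been studied for its part in partner preference and mate guarding, in males above all. Its binding is known to be dense in the ventral pallidum and the lateral septum, close neighbours of the nucleus accumbens. The effect of time with a partner on this receptor, in each sex, is the comparison that the design offers. The levels are of mRNA in a bulk punch, in which fewer cells that make a transcript and less of it in each cell cannot be told apart. The sources used here do not say how any near-identical copy of the gene was counted, and the unstranded libraries do not separate a transcript from its antisense partner.

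Depth was estimated at 15.4 to 37.7 M reads per library (M for mega), from the evenly spaced steps of the lowest values. Gene-specific factors in the lowest values, taken as part of the authors' normalization, were clustered and cut into a pair of patterns, A and B. The patterns were defined from the data with their number set beforehand, and finer ones within A or B were not looked for. Pattern B held the 11 male libraries that were naive or from 3 weeks, and pattern A the 29 females with the 6 males at 24 h. A comparison of 1 female group with another stays within pattern A, as does that of the sexes at 24 h, and naive males and males at 3 weeks share pattern B. The changes from naive to 3 weeks, averaged over the sexes or set against each other, thus stay within 1 pattern in each sex. In comparisons of males at 24 h with other males, and of males with females when naive or at 3 weeks, pattern and group cannot be told apart. The same holds for the male part of the changes from naive to 24 h, averaged over the sexes or set against each other. The row identifiers of the other genes could not be paired with symbols, so vasopressin and oxytocin, the other receptors of that family and the markers of neighbouring tissue were not analysed here, and the tissue label was not checked.

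Avpr1a was a gene of low to moderate level, with a mean of 86.3 normalized counts over all libraries, and 11375 of the 14455 genes tested had a higher mean. Levels are given as log2(normalized count + 1). In naive females the lowest, median and highest animals stood at 4.10, 6.04 and 7.31, which is 16.1, 65.2 and 157.5 normalized counts. Females at 24 h ran from 2.07 through a median of 5.81 to 7.51, or from 3.21 through 55.4 to 181 normalized counts. Females at 3 weeks ran from 1.90 through 5.17 to 7.17, or from 2.74 through 35.0 to 143 normalized counts. Each female group thus held animals at the level of the males and animals far under it.

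The male groups were narrower. Naive males stood at 5.79, 6.68 and 7.04 (lowest, median and highest), which is 54.5, 102 and 130.5 normalized counts. Males at 24 h stood at 6.08, 7.02 and 7.28, or 66.8, 129 and 154 normalized counts. The 5 males at 3 weeks had levels of 5.95, 6.70, 7.09, 7.36 and 7.81, from 61.0 to 224 normalized counts. No male fell under 54.5 normalized counts, a level that 13 of the 29 females did not reach.

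**Figure D1:**
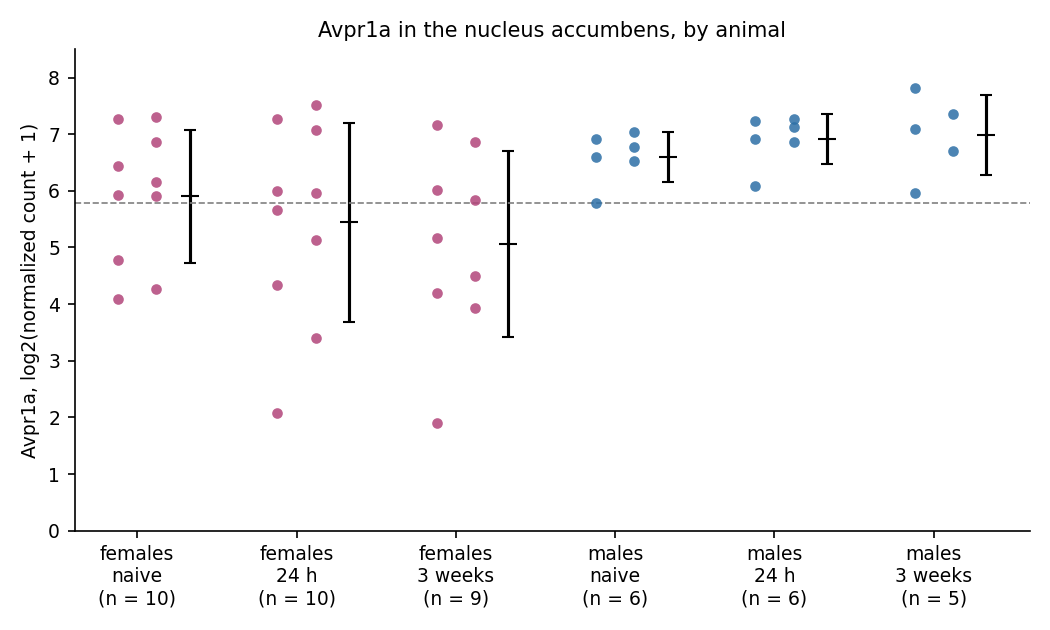
Level of Avpr1a in each of the 46 animals (points) by sex and time with a partner, as log2(normalized count + 1), with the group mean and SD beside the points (black). The dashed line marks the lowest male at 5.79; 13 of 29 females lie under it, and the lowest of them stand at 1.90 and 2.07.

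Ordered by their means, the groups ran from males at 3 weeks (6.98 ± 0.70, SD, n = 5) and males at 24 h (6.91 ± 0.44, n = 6) to naive males (6.61 ± 0.44, n = 6). Naive females followed (5.90 ± 1.17, n = 10), then females at 24 h (5.44 ± 1.75, n = 10) and females at 3 weeks (5.07 ± 1.64, n = 9). No neighbours in this order differed beyond the spread between animals. The 6 groups held 26.1% of the total sum of squares of the log2 levels, the sexes alone 21.8%, and 73.9% lay between animals of the same group.

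Males had more Avpr1a mRNA than females when the conditions were averaged, the only 1 of 14 comparisons of the gene with an adjusted p under 0.05. The mean over the 3 male groups was 120.3 normalized counts against 66.4 in females, a ratio of 1.81, and on the log2 scale the difference was 1.36 (SE 0.38, 95% interval 0.60 to 2.13, 2.57-fold, adjusted p = 0.00891 by limma). The permutation test of the Avpr1a values alone gave p = 0.00089 (0.0125 adjusted over the 14 comparisons), and on normalized counts, a scale added after seeing the data, it gave p = 0.00132. Of all genes tested, 19.6% passed the limma test in this comparison, 10.3% as higher and 9.37% as lower in males, so passing it was common. Of the 17 males in this comparison 11 were of pattern B, whose part was not tested here, and the difference within pattern A is that at 24 h. In size, 20 genes had a larger difference towards males than Avpr1a, and 32 a larger one in either direction. Of the 29 females, 13 were under the lowest male and 6 were over the median male.

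In single conditions the sexes overlapped. Naive males were over naive females by 0.70 (SE 0.64, 95% interval -0.58 to 1.99, adjusted p = 0.572 by limma), with 3 of 10 females under all 6 males and 2 over all of them. In that comparison 2.28% of genes passed. At 24 h, the condition in which both sexes were of pattern A, the difference was 1.47 (SE 0.64, 95% interval 0.19 to 2.76, adjusted p = 0.36 by limma, exact permutation p = 0.0651), and 0.0138% of genes passed. Here 7 of 10 females were under all 6 males and 2 were over all of them. At 3 weeks the difference was 1.92 (SE 0.69, 95% interval 0.53 to 3.31, adjusted p = 0.0956 by limma, exact permutation p = 0.028, 0.196 adjusted over the 14 comparisons), and 3.19% of genes passed. At that time 6 of 9 females were under all 5 males and 2 of 5 males were over all females. The limma call at 3 weeks depended on single choices: it passed with array weights (adjusted p = 0.0132) and without female 3 week replicate 8 (0.049), in a range of 0.0132 to 0.219 over the 24 alternatives.

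In females no comparison over time with a partner passed for Avpr1a. At 24 h the log2 difference from naive females was -0.46 (SE 0.55, 95% interval -1.57 to 0.65, adjusted p = 0.675 by limma, exact permutation p = 0.502), where 0.104% of genes passed. At 3 weeks it was -0.84 (SE 0.57, 95% interval -1.98 to 0.31, adjusted p = 0.893 by limma, exact permutation p = 0.215). Between 3 weeks and 24 h it was -0.38 (SE 0.57, 95% interval -1.52 to 0.76, adjusted p = 0.861 by limma). In the comparisons of females at 3 weeks 0% of genes passed limma, with 710 genes against naive females and 1248 against females at 24 h at an unadjusted p under 0.05. Chance alone would put a share of about 0.05 of the 14455 genes tested under that p, also for the like counts given below. The intervals reach from a loss of over 1 log2 unit to a gain, so such changes were not excluded. Their SEs come from 1 estimate per gene shared with the males, whose spread was narrower. With females fitted alone, a choice made after seeing the data, the SEs were wider. They were 0.65 at 24 h and 0.67 at 3 weeks against naive females, and 0.67 between 3 weeks and 24 h. Both differences from naive females leaned on 1 animal each: without female 24 h replicate 7 the first was -0.08, and without female 3 week replicate 5 the second was -0.44.

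In males the differences were small and positive, and they did not pass. At 24 h it was 0.31 against naive males (SE 0.71, 95% interval -1.13 to 1.74, adjusted p = 0.917 by limma, exact permutation p = 0.26), where 0.242% of genes passed. At 3 weeks it was 0.38, within pattern B (SE 0.75, 95% interval -1.13 to 1.88, adjusted p = 0.999 by limma, exact permutation p = 0.299), where 0% of genes passed and 344 had an unadjusted p under 0.05. Between 3 weeks and 24 h it was 0.07 (SE 0.75, adjusted p = 0.985 by limma), where 0.0692% of genes passed. Of the 6 males at 24 h 3 stood over all naive males, and so did 3 of the 5 males at 3 weeks. When 1 library was left out, the difference at 24 h ran from 0.15 (without naive male replicate 3) to 0.47 (without male 24 h replicate 2). That at 3 weeks ran from 0.17 (without male 3 week replicate 5) to 0.64 (without male 3 week replicate 3). These SEs carry the wide spread of the females, since the fit shares 1 estimate per gene. With males fitted alone, a choice made after seeing the data, the 95% interval was -0.28 to 0.90 at 24 h and -0.24 to 0.99 at 3 weeks, around the same differences.

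Averaged over the sexes, Avpr1a differed from naive animals by -0.08 at 24 h (SE 0.45, adjusted p = 0.951 by limma), where 3.01% of genes passed. At 3 weeks the averaged difference was -0.23 (SE 0.47, adjusted p = 1 by limma), where 0% passed and 508 genes had an unadjusted p under 0.05, and it was -0.03 without female 3 week replicate 5. The means moved in opposite directions in the sexes, but the difference between those changes was within the error. It was 0.77 at 24 h (male change minus female change, SE 0.90, 95% interval -1.05 to 2.58, adjusted p = 0.834 by limma, permutation p = 0.315), where 0.0484% of genes passed, and 0.39 without female 24 h replicate 7. At 3 weeks it was 1.21 (SE 0.94, 95% interval -0.68 to 3.11, adjusted p = 0.999 by limma, permutation p = 0.118), where 0% passed and 454 genes had an unadjusted p under 0.05.

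**Figure D2:**
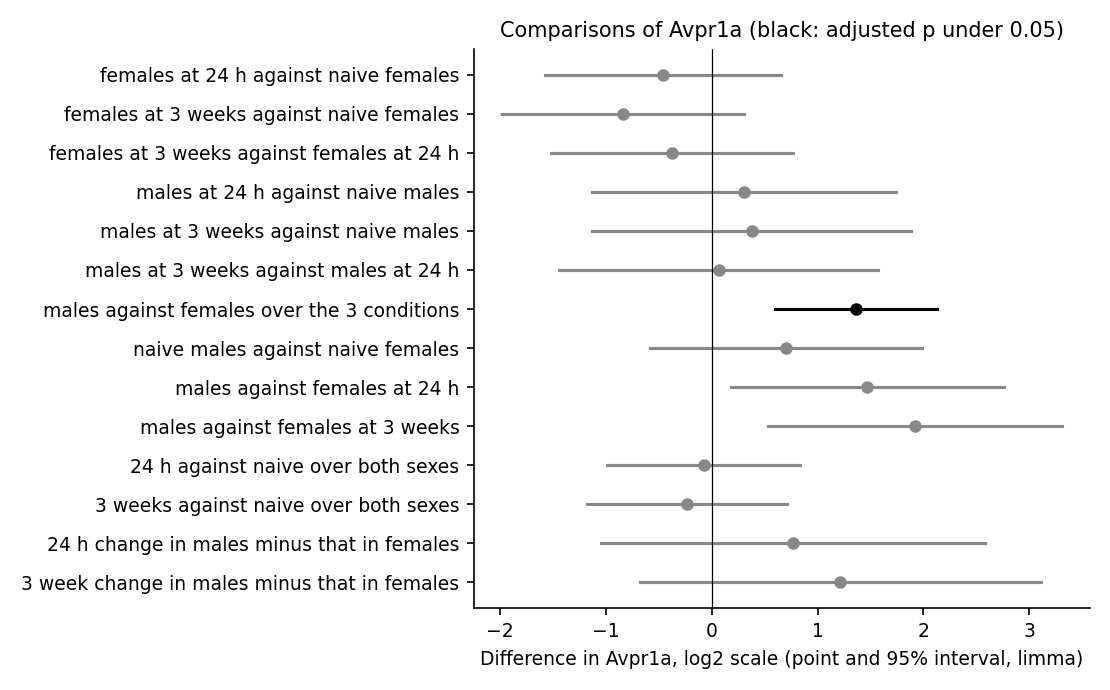
Differences in Avpr1a (points, log2 scale) with 95% intervals from the limma fit of all 46 libraries, for the 14 comparisons. The interval of males against females over the conditions runs from 0.60 to 2.13 and is the only one drawn in black (adjusted p = 0.00891); intervals of the comparisons over time with a partner all include 0.

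The spread between animals was the other measure in which the sexes differed, on the log2 scale. The SD within groups was 1.54 in the 29 females and 0.53 in the 17 males. The mean distance from the group median, averaged over the conditions, was 1.16 in females and 0.37 in males (difference 0.79, permutation p = 0.0013, 0.0039 adjusted over 3 tests of spread). On normalized counts it was 41.2 in females and 29.1 in males (permutation p = 0.24), so the difference in spread held for relative levels and did not pass for absolute ones. This second scale was chosen after seeing the data. At 3 weeks the SD of the normalized counts was 61.6 in males and 48.3 in females, against 26.7 and 51.9 in naive animals and 31.9 and 63.2 at 24 h.

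Few genes spread as widely as Avpr1a among females. Of the 14455 genes tested, 131 (0.906%) had a larger SD in females and 1888 (13.1%) in males. Among the 1145 genes with a mean level within 0.5 log2 units of it, Avpr1a included, the median SD was 0.42 in females and 0.39 in males, and 16 were wider than Avpr1a in females and 267 in males. The ratio of the female to the male SD was 2.91 for Avpr1a against a median of 1.09 over all genes tested, and 14 genes had a larger ratio, 1 of them at a like level. These ranks describe the libraries and were not tested.

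**Figure D3:**
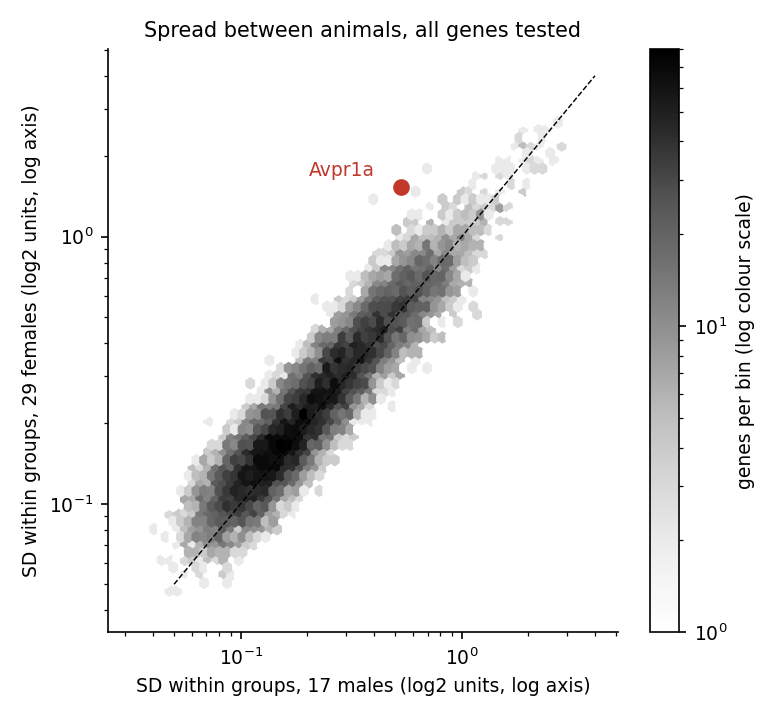
SD within groups of every gene tested, in 17 males (x axis) and 29 females (y axis), in log2 units on log axes; shading gives the number of genes and the dashed line marks equal SDs. Avpr1a (red) has an SD of 0.53 in males and 1.54 in females and lies above nearly all genes of its male SD.

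Within the females the spread was wide before a partner was met. The SD was 1.17 in naive females, 1.75 at 24 h and 1.64 at 3 weeks. The mean distance from the median was larger than in naive females by 0.41 at 24 h (exact permutation p = 0.348, 0.371 adjusted over 3) and by 0.35 at 3 weeks (exact permutation p = 0.371, 0.371 adjusted over 3), and neither passed. Without female 24 h replicate 7 the first was 0.13, and without female 3 week replicate 5 the second was 0.10. The highest naive female had 9.77 times the normalized count of the lowest (95% interval 6.02 to 16.3). At 24 h this ratio was 56.5 (19.1 to 278) and at 3 weeks 52.0 (17.4 to 254). In the male groups it was 2.40, 2.30 and 3.67 (naive, 24 h and 3 weeks). The intervals are exact binomial ones over estimated reads and cover counting error only.

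Both extreme lows rested on about 3 reads. Female 24 h replicate 7 and female 3 week replicate 5 had an estimated 26.95 and 30.4 M reads in all, so neither was shallow. The exact 95% Poisson interval of 3 reads, 0.62 to 8.77, puts these animals between 0.73 and 3.37 and between 0.65 and 3.18 on the log2 scale, under every male. The next lowest female, 24 h replicate 3, had about 10 reads, and the other 10 females under the lowest male had about 16 to 56. Without the 2 lowest animals, left out after seeing the data, males were over females by 1.11 over the conditions (SE 0.31, adjusted p = 0.0124 by limma; 0.00124 to 0.0272 over the 56 alternatives). The mean distance from the median was then larger in females by 0.62.

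No relation of Avpr1a to sequencing depth was detected. With group means removed, Pearson's r with the estimated depth was -0.19 in the 29 females (permutation p = 0.311, or 0.47 when adjusted over both sexes), and Spearman's rho was -0.25 (permutation p = 0.188). In the 17 males r was 0.18 (permutation p = 0.47, 0.47 adjusted) and rho was 0.13 (permutation p = 0.588). Without the 2 libraries farthest from the median depth r was -0.16 in females and -0.05 in males.

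The position of an animal on Avpr1a was shared by other genes. Likeness was measured as Pearson's r over all 46 libraries with group means removed, as a description with no p, and the points share their library, its depth and its tissue punch. The gene most like Avpr1a was ENSMOCG00000021402, at r = 0.90 (0.92 in the 29 females and 0.81 in the 17 males). ENSMOCG00000008843 came next, also at r = 0.90 (0.93 in females and 0.81 in males). They were the 2 genes of highest r among females, where ENSMOCG00000008843 led, and stood at ranks 52 and 55 among males. Without the 2 libraries of lowest Avpr1a the r values were 0.90 and 0.92.

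The genes most opposite to Avpr1a were ENSMOCG00000014932 (r = -0.81, with -0.83 in females and -0.81 in males) and ENSMOCG00000008136 (r = -0.80, with -0.84 in females and -0.80 in males). Over all other genes tested the lowest r was -0.81, the quartiles were -0.19 and 0.19 and the highest was 0.90. The sources used here do not say what these genes encode.

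Both like genes shared the direction of the sex difference with Avpr1a. The measure of likeness removed the group means but came from the same animals, so this is not independent of it. As for Avpr1a, most males in the sex differences over the conditions were of pattern B, whose part was not tested here. Among females ENSMOCG00000008843 had the order of group means of Avpr1a and ENSMOCG00000021402 did not, and among males neither had it. ENSMOCG00000021402 stood at 9.51 ± 0.60 (SD, n = 10), 9.60 ± 0.70 (n = 10) and 9.36 ± 0.73 (n = 9) in naive, 24 h and 3 week females, and at 9.97 ± 0.36 (n = 6), 10.34 ± 0.42 (n = 6) and 10.34 ± 0.33 (n = 5) in the males. It was higher in males over the conditions by 0.73 (SE 0.17, adjusted p = 0.00289 by limma). For ENSMOCG00000008843 males exceeded females by 1.58 (SE 0.34, adjusted p = 0.0012 by limma), with means of 6.77, 6.58 and 6.26 in naive, 24 h and 3 week females and of 7.74, 8.46 and 8.15 in the males. Its SD was 1.09, 1.29 and 1.46 in the same female groups and 1.11, 0.59 and 0.66 in the male groups, so naive males spread as widely as naive females. The opposite genes were lower in males, ENSMOCG00000014932 by a log2 difference of -0.26 (SE 0.06, adjusted p = 0.00148 by limma) and ENSMOCG00000008136 by -0.37 (SE 0.08, adjusted p = 0.000967 by limma). None of the 4 passed in the 8 comparisons over time with a partner, where the lowest adjusted p by limma was 0.578 and 0% to 3.01% of all genes tested passed.

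**Figure D4:**
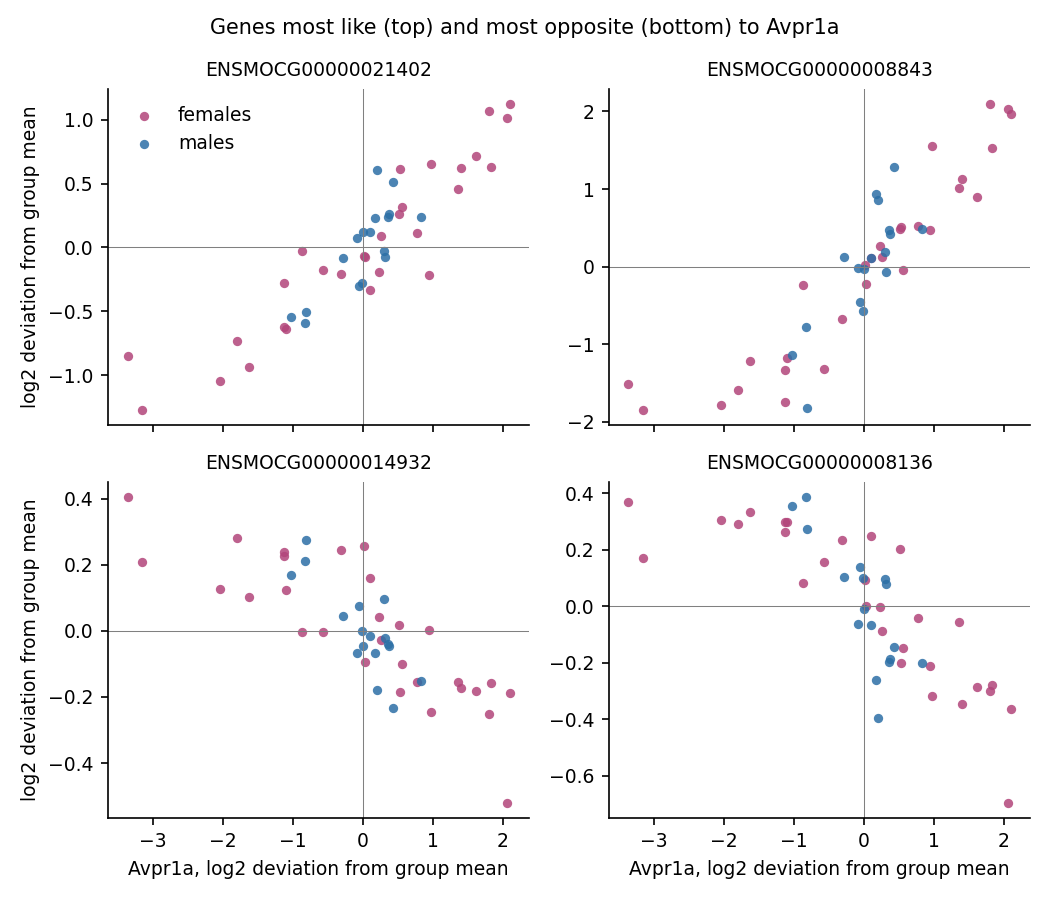
Deviation of each animal from its group mean in Avpr1a (x axes) and in the genes most like it (top) and most opposite to it (bottom), in log2 units, for 29 females and 17 males. The top genes rise with Avpr1a (r = 0.90 for each over 46 libraries) and the bottom genes fall (r = -0.81 and -0.80).

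Over all 46 libraries 205 genes followed Avpr1a at r of at least 0.7, and 102 ran against it at -0.7 or under. All 205 had a positive r within males alone (median 0.69) and all 102 a negative one (median -0.66), but males were among the libraries that picked them. Of the 205, 170 passed as higher in males and 0 as lower, with a median log2 difference of 0.45, where 10.3% of all genes tested passed as higher. Of the 102, 78 passed as lower and 0 as higher, with a median of -0.27, where 9.37% of all genes passed as lower. Both lists were picked in the same animals by likeness to Avpr1a, so these counts are not independent of its own sex difference. Most of the males in these counts were of pattern B, whose part was not tested here. A larger difference towards males than that of Avpr1a was found in 9 of the 205, and a larger SD among females in 3. Over all 14454 other genes tested these counts were 20 and 131. In their median the 205 differed from naive animals by 0.03 and -0.08 in females and by 0.14 and 0.18 in males (24 h and 3 weeks), and 1 of them passed, in males at 24 h, where 0.242% of all genes tested did.

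Avpr1a also followed the broadest axis of variation between animals. The first principal component of all other genes tested, with group means removed, held 9.74% of their variance within groups. Genes were not scaled to equal variance, so those of large SD weigh more in the component. Avpr1a correlated with it at r = 0.78 over the 46 libraries, at 0.80 in females and 0.68 in males. Marker genes of neighbouring regions and of other cell types could not be read along this component, so their part in the level of Avpr1a was not tested.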

How the data were processed

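RNA-seq was made from nucleus accumbens punches of 46 prairie voles. The labels' protocols describe poly(A) selection, random-hexamer cDNA, unstranded libraries and added synthetic spike-in RNAs. The submitters' processing notes name Salmon 0.12, DESeq2, fastp 0.14.1, bcl2fastq 2.20.0.422 and FastQC 0.11.7, and build and annotation are absent from the sources used here. One table was deposited by the authors, which by its values (0 to 19.9) holds log2 of a normalized count plus 1.

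The log was undone, and the value of 1 read was read from the lowest steps of each library. Values of up to 3 reads lay within 0.1 of a whole read in 46.2% to 91.8% of cases per library, so the values were not turned back into reads for a count test. Patterns A and B came from average-linkage clustering of the gene-specific factors in those values (3536 genes), with the tree cut into a pair of clusters.

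Genes whose mean over all libraries reached 10 normalized counts (14455) were fitted with limma 3.58.1 (R 4.3.3; trend, robust, 6 group means, pseudocount of 1, Benjamini-Hochberg, threshold 0.05), and the script was tested on simulated data. Permutation tests (Python 3.11.15, scipy 1.17.1) of Avpr1a alone were 2-sided and exact for a pair of groups, and otherwise used 100000 permutations within conditions or within sexes (residuals of an additive model for the differences of changes). Groups follow the sample titles.

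The member and the lists were chosen with earlier results of these data known. Besides Avpr1a, the rule named the 2 genes of highest and the 2 of lowest within-group r with it. The reference table (MicOch1.0) matched 0 of 17478 identifiers and has 0 entries under the symbol Avpr1a, so the pathway and marker lists were not run, and sequence and position are not given. Alternatives were the filter, pseudocount, scaling, groups fitted, array weights, replicate block and leaving out each library, and others, named where they are used, were added after seeing the data.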

Additional observations from a re-analysis of the deposited data

Results flagged for a closer look

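Male 24 h replicate 2 had an Avpr1a level of 6.08, apart from the other 5 males at 24 h, the nearest of which stood at 6.86. Its gap to that animal was 0.648 of the range of the group, against a critical value of 0.625 for 6 samples (Dixon's test at 95%). Chance alone flags about 1 group in 20, and 6 groups were looked at from both ends. Its estimated depth was 26.8 M reads, with about 65 reads of Avpr1a. Without it the difference of males at 24 h from naive males was 0.47 in place of 0.31, and that of males at 3 weeks from males at 24 h was -0.10 in place of 0.07.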

How the results depend on the processing

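The difference between the sexes over the conditions passed in all 56 alternatives on the log2 scale, at 1.11 to 1.57. Of these, 46 each left out 1 library, and fitting only the groups compared repeats the main fit for this comparison. The larger spread of females passed in all 52, and was 12.1 normalized counts, no longer past the threshold, on the count scale (adjusted p = 0.721). On that scale the spread of females at 3 weeks minus that of naive females was -4.51. The sex difference at 3 weeks came to 2.33 with array weights and to 1.52 to 2.18 when 1 library was left out. Values near 0 changed sign. When 1 library was left out, females at 3 weeks against 24 h ran from -0.75 to 0.017 (without female 3 week replicate 5), males at 3 weeks against 24 h from -0.14 to 0.33 (under 0 without male 24 h replicate 2 or male 3 week replicate 2 or 5), and 24 h against naive over both sexes from -0.19 to 0.11 (over 0 without naive female replicate 3 or 7, female 24 h replicate 3 or 7, or male 24 h replicate 2). Without the 2 libraries of about 3 reads the last was 0.11, and without the 2 libraries farthest from the median depth the relation to depth in males was -0.053. The cause of these changes was not tested. No other comparison or spread changed direction or side of the threshold.

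No pairing of the animals by replicate number was detected: same-numbered libraries of different groups had deviations correlated at a mean of -0.003 (95 pairs, from -0.23 to 0.30). Libraries of different numbers had a mean of 0.0004 (774 pairs, from -0.32 to 0.35). The same-numbered pairs were pooled over all groups, so a pairing of mates within a condition was not tested. With the number as a replicate block the sex difference over the conditions was 1.36 (adjusted p = 0.0272), and no call changed. The pattern as a term could not be fitted, since each group held 1 pattern only. Precision was limited by the spread between animals, and in the lowest females by counts of about 3 reads.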
